A study of Mus musculus with 6 samples.

Results

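Natural killer cells of the uterus were followed through 10 of their genes, out of 37060 genes in the deposited table: the receptor genes Ncr1, Klrd1, Klrb1c and Klrk1, the killing genes Prf1, Gzma, Gzmb and Gzmc, and the transcription factor genes Eomes and Tbx21. The members were chosen by gene symbol, and all 10 had a row and passed the filter on low values. The study sequenced RNA of whole mouse uterus on gestation day 5, when embryos implant, in 3 SRC-2f/f control and 3 SRC-2d/d mutant mice, and asked how SRC-2 regulates implantation. Ncoa2 encodes SRC-2, a protein that helps steroid hormone receptors to activate their target genes. In the usual notation f/f marks a floxed allele, which the controls carry, and d/d its deleted form. The Cre driver, the deleted part of the gene, the strain and the age of the mice were not given in the sources used here.

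Uterine natural killer cells are lymphocytes that gather in the uterine lining as it turns into decidua. They depend on interleukin 15, recognise other cells through activating and inhibitory surface receptors, and carry granules with perforin and granzymes. Perforin opens the target cell's membrane, and granzymes are the serine proteases that then enter it. Eomes and T-bet, the product of Tbx21, are the T-box factors that set natural killer cell identity. Mice have, beside granzymes A and B, a group of closely related granzymes C to G. Their genes lie in the same cluster, and these granzymes are known from the uterus of pregnant mice.

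Values are normalized counts, which are reads per gene divided by a size factor for each library, without correction for gene length. Log2 differences are mutant minus control on log2(normalized count + 1) with their standard error (SE), and an adjusted p is from limma with Benjamini-Hochberg adjustment over 36154 genes unless another tool is named. Genes with an adjusted p under 0.05 were called. The libraries held 129905950 to 195782326 reads in genes, and 3 reads, the limit that a count of 0 allows, corresponded to a normalized count of 2.48 to 3.41. Ncoa2 fell from 13598 ± 779 in controls to 7232 ± 501 in mutants (SD, n = 3; log2 difference -0.91, SE 0.20, adjusted p = 0.00953), with each mutant library below each control library. That call was lost without control 2 (-0.94, adjusted p = 0.0583) and without control 3 (-0.86, adjusted p = 0.0585). Uterine genes such as Hoxa10, Pecam1 and Esr1 were abundant in all 6 libraries. In whole tissue, fewer cells of a type and less RNA per cell cannot be told apart.

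Of the 10 natural killer cell genes, 1 was called lower in mutants and none was called higher. Gzmc was the gene called, and it fell to 12.5% of the control level. Among all genes tested, 4.08% were called lower and 5.34% higher, and 9.42% were called in either direction, so the count of members called is near what the whole table shows. The 4 receptor genes, perforin and both T-box factor genes had overlapping groups, and so did Gzma and Gzmb. The groups did not overlap for 1 member, beside 25.5% of all genes. The median log2 difference of the members was -0.08, beside -0.01 for all genes tested, with 3 members above 0 and 7 below. At an unadjusted p under 0.05, Gzma lay above 0, and Gzmb and Gzmc below. On whole reads, edgeR's quasi-likelihood test also called 1 member lower and 0 higher, against 3.58% and 5.52% of all genes, and 9.1% in either direction.

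**Figure D1:**
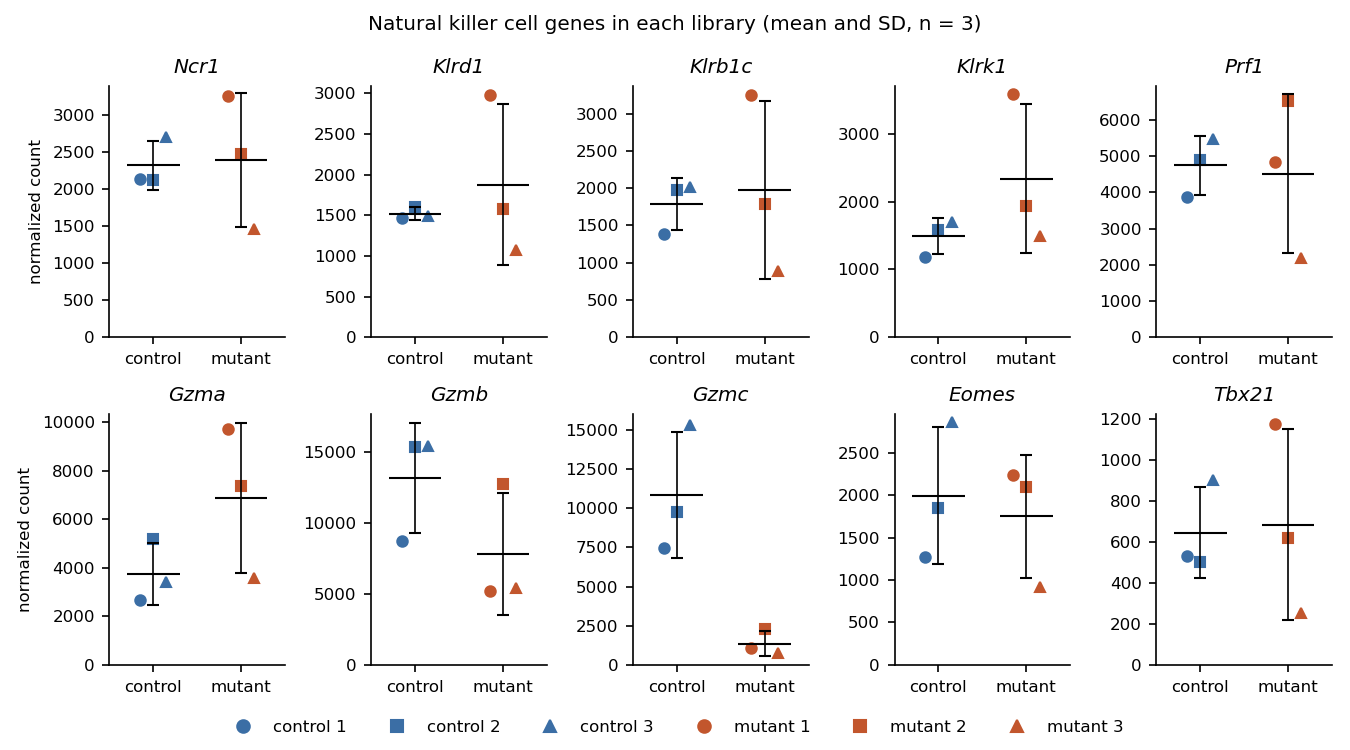
Normalized counts of the 10 natural killer cell genes in each library, 1 panel per gene, with controls left, mutants right and a marker shape for each replicate number. Horizontal marks and bars give the mean and SD of 3 mice. All 3 mutants lie below the 3 controls in the Gzmc panel, and the groups overlap in the other 9 panels.

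Ncr1 encodes NKp46, an activating receptor found on almost all natural killer cells. The controls held 2140, 2117 and 2706 normalized counts and the mutants 3259, 2467 and 1455, each in the order of libraries 1 to 3, which is kept throughout. Mutant 1 held the highest and mutant 3 the lowest of the 6 values, with the controls between them. The group means were thus nearly equal, 2321 ± 333 for controls against 2394 ± 904 for mutants (log2 difference -0.02, SE 0.29, adjusted p = 0.977). The 95% interval of the log2 difference ran from -0.64 to 0.60, which leaves room for changes in either direction.

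Klrd1 encodes CD94, which pairs with NKG2 chains to form receptors for the nonclassical class I molecule Qa-1. It had 1462, 1607 and 1497 in the controls and 2987, 1575 and 1071 in the mutants. The controls lay close together, while mutant 1 stood above and mutant 3 below all of them. The log2 difference was 0.17 (SE 0.32, adjusted p = 0.802).

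Klrb1c encodes NK1.1, the surface antigen by which natural killer cells are recognised in several mouse strains. Counts of 1391, 1972 and 2012 were found in the controls, against 3248, 1781 and 886 in the mutants. Again mutant 1 was highest and mutant 3 lowest, and mutant 2 fell among the controls. Its log2 difference was -0.04 (SE 0.38, adjusted p = 0.971). Of the 50-base stretches of Klrb1c transcripts, 17.0% also occur in another gene's transcript, so its reads may be shared with relatives.

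Klrk1 encodes NKG2D, an activating receptor for stress-induced ligands. Values of 1190, 1580 and 1703 in the controls stood beside 3589, 1931 and 1499 in the mutants. Mutants 1 and 2 exceeded every control, and mutant 3 fell within the control range. The mean was 1491 ± 268 for controls against 2340 ± 1103 for mutants (log2 difference 0.57, SE 0.31, adjusted p = 0.311).

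Prf1 encodes perforin. It was counted at 3872, 4905 and 5487 in the controls and at 4846, 6535 and 2186 in the mutants. Here mutant 2 was highest and mutant 3 lowest, and mutant 1 lay inside the control range. Its log2 difference was -0.20 (SE 0.33, adjusted p = 0.779).

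Gzma encodes granzyme A, a protease with trypsin-like specificity. The controls had 2662, 5174 and 3409, and the mutants 9708, 7361 and 3591. Mutants 1 and 2 exceeded every control, while mutant 3 lay below control 2, so the groups overlapped. The means were 3748 ± 1290 and 6887 ± 3086 (log2 difference 0.82, SE 0.34, 95% interval 0.09 to 1.55), and the difference was not called (adjusted p = 0.165). It was called when mutant 3 was left out (1.23, adjusted p = 0.0234).

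Gzmb encodes granzyme B, which cleaves after aspartate and sets off cell death. The counts were 8717, 15375 and 15398 in the controls and 5220, 12737 and 5436 in the mutants. Mutants 1 and 3 lay below every control, but mutant 2 lay above control 1. The means were 13164 ± 3851 and 7798 ± 4279 (log2 difference -0.84, SE 0.33, 95% interval -1.55 to -0.12), with an adjusted p of 0.143. Without mutant 2 the difference passed the threshold (-1.26, adjusted p = 0.00476).

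Gzmc encodes granzyme C, first of the granzyme C to G group. Its normalized counts were 7437, 9779 and 15284 in the controls, against 1052, 2268 and 729 in the mutants. Every mutant value lay far below every control value, with mutant 2 the highest of the mutants. The mean fell from 10833 ± 4029 to 1349 ± 811, an 8.03-fold difference of means (log2 difference -3.11, SE 0.37, 95% interval -3.90 to -2.31, adjusted p = 0.000104). With edgeR's quasi-likelihood test the adjusted p was 0.000145. The call was kept in each of 17 alternatives, with log2 differences of -3.56 to -2.74 and an adjusted p of 5.04e-12 to 0.0415. The ratio of means moved to 12.2 without mutant 2.

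Eomes and Tbx21 encode the T-box factors. Eomes stood at 1272, 1853 and 2862 in the controls and at 2242, 2094 and 921 in the mutants. Mutants 1 and 2 lay inside the control range and mutant 3 below it (log2 difference -0.21, SE 0.36, adjusted p = 0.779). Tbx21 stood at 533, 504 and 902 in the controls and at 1178, 620 and 253 in the mutants. Mutant 1 was its highest and mutant 3 its lowest library (log2 difference -0.13, SE 0.46, adjusted p = 0.905).

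**Figure D2:**
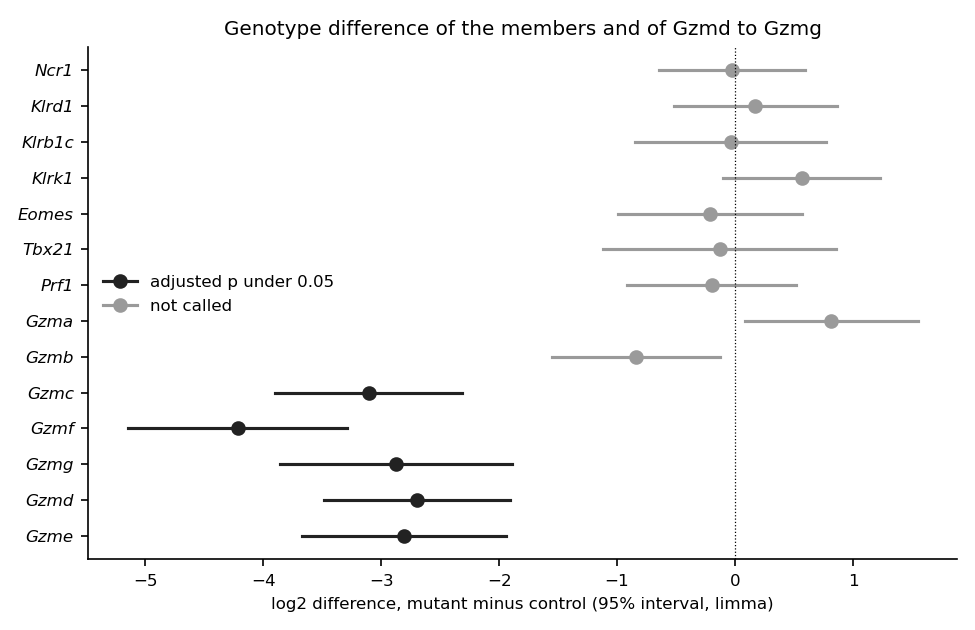
Log2 difference (mutant minus control, horizontal axis) with its 95% interval from limma for the 10 members and for Gzmd to Gzmg. Dark points passed an adjusted p of 0.05. Gzmc to Gzmg lie between -4.22 and -2.70, while the intervals of the receptor genes and of Prf1, Eomes and Tbx21 include 0.

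Gzmd, Gzme, Gzmf and Gzmg, which lie in the same gene cluster as Gzmc, all fell as well. They belong to a list of 18 other granule and killing genes, of which 5 were called lower and 2 higher, beside 4.08% and 5.34% of all genes. Gzmd had 3189, 3951 and 3214 in the controls and 273, 948 and 571 in the mutants (log2 difference -2.70, SE 0.37, adjusted p = 0.000326). Gzme had 1044, 1516 and 1414 against 98.8, 343 and 191 (log2 difference -2.80, SE 0.40, adjusted p = 0.000503). For both genes mutant 2 was the highest mutant, as it was for Gzmc, and no mutant reached a control.

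Gzmf showed the largest difference of the group, from 1898, 1216 and 1334 in the controls to 36.4, 108 and 117 in the mutants. Only 5.87% of its control level remained (log2 difference -4.22, SE 0.43, adjusted p = 2.97e-05). Gzmg had 388, 403 and 227 against 32.9, 67.6 and 38.0 (log2 difference -2.87, SE 0.46, adjusted p = 0.00112). Neither gene had a mutant value near a control value. Summed over Gzmc to Gzmg, the controls reached 13956, 16865 and 21473 and the mutants 1493, 3734 and 1645. The calls of Gzme, Gzmf and Gzmg were kept in all 17 alternatives, and Gzmd lost its call in 1, eBayes without trend (adjusted p = 0.0503). Gzmn, which lies in the same cluster, was not analysed here.

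These 5 granzyme genes are near copies of each other, and reads could be assigned to the wrong one. Of all 50-base stretches of their transcripts, 4.14% were also found in another gene for Gzmc, 21.9% for Gzmd, 20.6% for Gzme, 7.36% for Gzmf and 19.8% for Gzmg. For Gzmc this was 35 of 845 stretches, all shared with Gzmd, Gzme or Gzmg. Gzma, Gzmb, Prf1, Ncr1, Klrd1, Klrk1 and Tbx21 had none. How the counting treated reads with several matches was not given in the sources used here, so the level of each single granzyme in this group is less certain than their sum.

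In RefSeq gene names along mouse chromosome 14, the order is Gzme, Gzmd, Gzmg, Gzmn, Gzmf, Gzmc and Gzmb, all on the minus strand. The cluster thus places Gzmb, which was lower on average but not called, next to Gzmc, which was called lower. The 150 bases before the RefSeq start (build GRCm38.p6, minus strand, 5′ to 3′) are shown for Gzmb and the 5 genes called lower. Capitals mark the RUNX motif TGTGGT and the cAMP response element TGACGTCA.
Gzmb, chr14:56262335-56262484: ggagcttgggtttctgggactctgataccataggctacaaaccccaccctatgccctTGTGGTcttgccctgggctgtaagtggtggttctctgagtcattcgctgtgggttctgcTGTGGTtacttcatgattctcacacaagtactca
Gzmc, chr14:56234658-56234807: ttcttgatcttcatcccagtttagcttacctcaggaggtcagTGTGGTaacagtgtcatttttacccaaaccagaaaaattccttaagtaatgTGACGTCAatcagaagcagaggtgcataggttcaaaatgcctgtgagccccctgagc
Gzmf, chr14:56211408-56211557: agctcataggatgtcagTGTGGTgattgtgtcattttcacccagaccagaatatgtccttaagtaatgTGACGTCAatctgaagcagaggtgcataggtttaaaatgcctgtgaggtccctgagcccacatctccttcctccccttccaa
Gzmg, chr14:56159580-56159729: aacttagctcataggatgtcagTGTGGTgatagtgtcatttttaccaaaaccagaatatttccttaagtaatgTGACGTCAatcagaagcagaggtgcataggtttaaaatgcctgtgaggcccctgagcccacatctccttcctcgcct
Gzmd, chr14:56132594-56132743: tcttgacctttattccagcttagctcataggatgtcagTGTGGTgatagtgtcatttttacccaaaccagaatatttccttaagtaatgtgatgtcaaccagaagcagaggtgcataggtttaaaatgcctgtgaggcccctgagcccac
Gzme, chr14:56120626-56120775: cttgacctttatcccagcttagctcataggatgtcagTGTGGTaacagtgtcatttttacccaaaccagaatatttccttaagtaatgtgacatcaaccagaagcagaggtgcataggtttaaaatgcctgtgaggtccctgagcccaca

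The 250 bases before the start of Gzmc to Gzmg were 84.4% to 95.6% identical over 225 to 249 aligned bases in the 10 pairs. A run of 20 bases, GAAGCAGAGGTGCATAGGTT, was shared by all 5 and began at -45 from the start in Gzmc, -49 in Gzmd, -50 in Gzme, -70 in Gzmf and -65 in Gzmg. Gzmb shared no run longer than 9 bases with any of them. The promoters of the 5 genes called lower are thus closely alike. For Gzmb only the longest shared run is given, without a percent identity beside those of the 10 pairs. Gzmb was also lower on average in mutants (log2 difference -0.84, SE 0.33), by less than the 5 and without a call. It is therefore not an unchanged gene to set against them. Whether promoter sequence bears on the differences was not tested.

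The same windows of 250 bases were searched for 4 motifs on both strands, in 9 of the 10 members and in all 32851 RefSeq promoters. The RUNX motif TGTGGT, bound by RUNX factors that act in lymphocytes, occurs in 14.0% of all promoters. It was found in Ncr1, Klrb1c, Klrk1, Prf1, Gzma, Gzmb and Gzmc, and not in these letters in Eomes or Tbx21. The T-box motif GTGTGA, found in 12.3% of all promoters, was present in Ncr1 and Gzmb. The consensus estrogen response element occurs in 0.0639% of all promoters and was present in none of the 9. The cAMP response element TGACGTCA was added to the search after the sequences had been seen. It occurs in 1.55% of all promoters and was present in Gzmc (at -57), Gzmf (-82) and Gzmg (-77), but not in these letters in Gzmd, Gzme or Gzmb. A match describes the letters only and shows no binding.

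Levels can be compared between genes only per length, here as normalized counts per kb of exon. The length is the union of all GENCODE M21 exons of a gene over its transcripts. In controls the order began with Gzmc at 12118 ± 4506 and Gzmb at 9167 ± 2682 per kb, which overlapped within their spread. Gzma followed at 3726 ± 1282, then Prf1 at 1840 ± 317 and Ncr1 at 1507 ± 217, which overlapped, and Klrd1 at 1188 ± 59.3. Klrb1c at 605 ± 117, Eomes at 480 ± 194, Tbx21 at 260 ± 89.3 and Klrk1 at 208 ± 37.3 were lowest, and each of these overlapped its neighbour. The rank of Klrk1 rests on its union length of 7183 bases, against 1281 for Klrd1. Their mean control counts were close, at 1491 and 1522. In mutants Gzma at 6846 ± 3068 and Gzmb at 5430 ± 2980 led per kb, and Gzmc at 1509 ± 908 lay beside Prf1 at 1750 ± 849 and Ncr1 at 1555 ± 587. The granzyme with the highest mean level in controls was therefore at the level of perforin and NKp46 in mutants. Gzmd in controls, at 3580 per kb, stood near Gzma.

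The mutant libraries differed more among themselves than the controls did. For each of the 10 members the SD was a larger share of the mean in mutants (37.8% to 68.1%) than in controls (4.99% to 40.3%). Mutant 1 was the highest library for 6 of the 10 members, beside 17.0% of the 17979 genes whose mean reached 100. Mutant 3 was the lowest for 7 (70.0%), beside 23.3% of those genes. The ratio of mutant 1 to mutant 3 was at least 2 in 8 of 10 members (80.0%, against 6.62% of those genes), with a median of 2.41 in the members and 0.952 in those genes. The ratio was smallest for Gzmb, at 0.960, and largest for Tbx21, at 4.64. Gzmb and Gzmc were the members below a ratio of 2, so receptors, perforin, Gzma and the T-box factor genes shared the order of mutants 1 and 3.

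The 4 receptor genes, summed, gave 6183, 7277 and 7918 for the controls and 13082, 7754 and 4911 for the mutants. As a share of 8 pan-leukocyte marker genes, the receptor sum was 7.66%, 9.98% and 9.45% in controls and 13.1%, 8.97% and 6.35% in mutants. The spread between mutants thus narrowed but remained after division by leukocyte markers. Ptprc, the common leukocyte antigen CD45, had 12296, 9196 and 10723 against 20128, 12528 and 11883 (log2 difference 0.44, adjusted p = 0.319), also highest in mutant 1. Its part in the spread of the members was not tested.

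**Figure D3:**
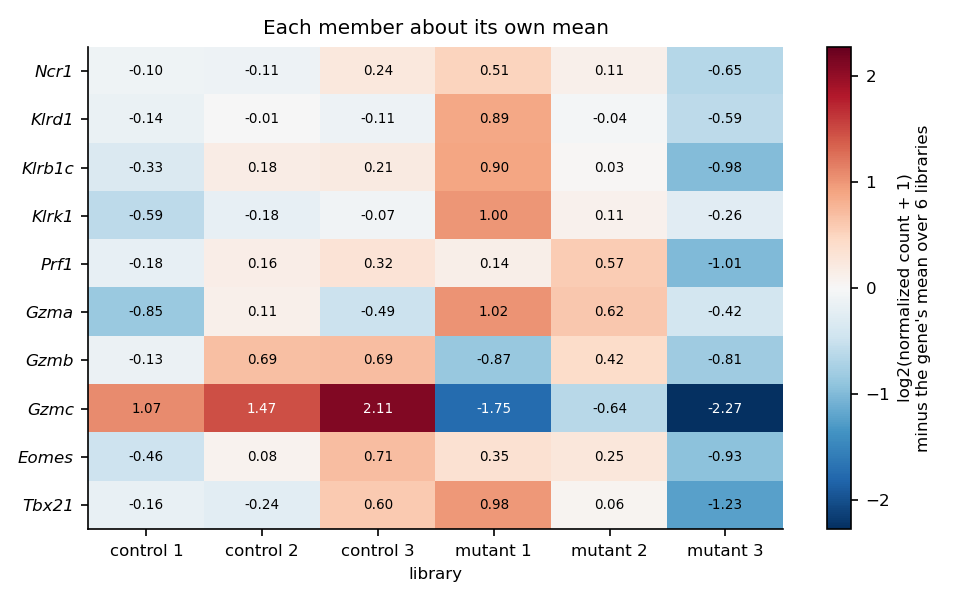
Each member (rows) in each library (columns), as log2(normalized count + 1) minus the gene's own mean over the 6 libraries; the color scale and the printed values give that difference. Mutant 3 is the lowest library for 7 members, and the Gzmc row separates controls from mutants.

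The genes whose pattern was nearest to the members' mean centred pattern over the 6 libraries, by root mean square distance on the log2 scale among 20616 genes, were Il12rb1 (0.0813), Spn (0.0880), Abcb9 (0.109), Gpr171 (0.111) and Coro1a (0.114). Il12rb1 encodes a subunit of the interleukin 12 receptor, Spn the leukocyte surface protein CD43, and Coro1a a leukocyte actin regulator. The mean pattern itself was -0.19, 0.21 and 0.42 for the controls and 0.32, 0.15 and -0.91 for the mutants. None of the 5 genes was called between genotypes, with log2 differences of -0.28 to -0.14. Their choice by likeness to this pattern in the same libraries largely fixes these differences, which are thus no separate result.

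Because the mutants varied together, the effector and factor genes were also compared with the receptor genes of the same library, as log2 value minus the mean log2 value of Ncr1, Klrd1, Klrb1c and Klrk1. This comparison was chosen after the values had been seen. In it 2.26% of all genes were called lower and 2.77% higher. The same receptor mean was subtracted from every gene, so all genes share its error. The adjusted p below therefore overstates the evidence and cannot be set beside that of the genotype comparison given first. For Gzmc the SE was 0.55 here against 0.37 there, yet the adjusted p was smaller here. Gzmc fell by 3.28 on the log2 scale relative to the receptors (SE 0.55, adjusted p = 2.97e-07), and Gzmf fell by 4.39 (SE 0.61, adjusted p = 2.23e-10). Gzmd, Gzme and Gzmg were also called, with differences of -2.87, -2.97 and -3.04, and the call of Gzmg was lost without control 2 (adjusted p = 0.0533). The difference of Gzmb was -1.01 (adjusted p = 0.438), that of Gzma 0.65 (0.759), Prf1 -0.37 (0.900), Eomes -0.38 (0.895) and Tbx21 -0.30 (0.930), and none of these was called.

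In ratios of normalized counts, Gzmc to Ncr1 was 3.48, 4.62 and 5.65 for the controls and 0.323, 0.919 and 0.501 for the mutants. The ratio of Gzmc to Gzmb was 0.853, 0.636 and 0.993 in controls and 0.202, 0.178 and 0.134 in mutants. Both ratios separated the genotypes with no overlap. Gzma to Ncr1 was 1.24, 2.44 and 1.26 in controls and 2.98, 2.98 and 2.47 in mutants, and Klrk1 to Ncr1 was 0.556, 0.746 and 0.629 against 1.10, 0.782 and 1.03. The Gzma and Klrk1 ratios were also higher in each mutant than in each control, and both were picked after their values had been seen, so no test is given. Ratios to Ncr1 were also taken for Gzmb, Klrd1, Eomes and Tbx21, and for each of these the groups overlapped. Gzmb to Ncr1, for example, was 4.07, 7.26 and 5.69 in controls and 1.60, 5.16 and 3.73 in mutants. How many of all genes separate the groups in such a ratio is not given.

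**Figure D4:**
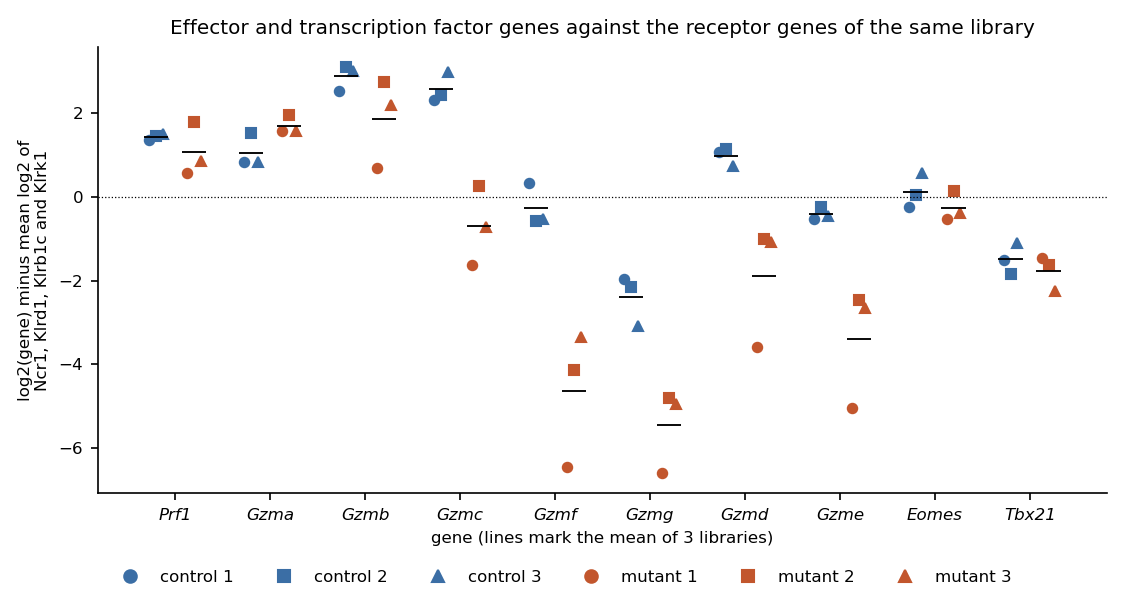
Log2 of each effector or transcription factor gene minus the mean log2 of Ncr1, Klrd1, Klrb1c and Klrk1 in the same library (vertical axis), per library and gene, with lines at the mean of 3 libraries. Gzmc to Gzmg are lower in every mutant than in every control, and the differences of the other genes were not called.

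Other receptors of natural killer cells, such as the Ly49 and NKG2 families, did not pass the test. Of 30 tested, 0 were called by limma or by edgeR in either direction, 24 had a positive log2 difference (49.6% of all genes did), and the median was 0.49. An unadjusted p under 0.05 was found for 6 of the 30, beside 8152 of all 36154 genes, so the count over both directions is near the background. All 6 had a positive difference, and the share of all genes for that direction alone is not given. The groups did not overlap for 9 of them, all with mutants above, where 13.4% of all genes lay so. Mutant 1 was the highest library for 24 of the 30. Klrc1 and Klrc2 encode NKG2 chains that pair with CD94. Klrc2 had 198, 149 and 155 against 833, 249 and 242 (log2 difference 1.15, adjusted p = 0.148), and Klrc1 had 187, 210 and 229 against 471, 348 and 270 (log2 difference 0.77, adjusted p = 0.208). Of the transcript stretches, 38.6% in Klrc1 and 16.3% in Klrc2 occur in another gene. Without mutant 1 the ratio of mutant to control mean for Klrc2 went from 2.64 to 1.47. The Klrb1 relatives differed in sign, with log2 differences of 0.76 for Klrb1f (adjusted p = 0.170), 0.67 for Klrb1a (adjusted p = 0.414) and -0.38 for Klrb1b (adjusted p = 0.610). Crtam, a receptor of activated cells, had 1.19 (adjusted p = 0.0763) and Slamf7, an adhesion receptor, 0.71 (adjusted p = 0.122). DESeq2 called Crtam (adjusted p = 0.0157) and Klrc2 (adjusted p = 0.0217), with an adjusted p up to 0.218 and 0.520 over their alternatives. It was looked up only for the receptors named here, so its count over the 30 is not given. Of all genes, DESeq2 called 7.01% higher and 5.07% lower. In the 15 adaptor and signalling genes of these receptors 0 were called by limma or edgeR, 1 had an unadjusted p under 0.05, and the median was -0.01.

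Among other granule and killing genes, Tnfsf10, which encodes the death ligand TRAIL, rose from 4922 ± 947 to 21046 ± 10835 (log2 difference 1.95, adjusted p = 0.00268). Stxbp2, whose product acts in granule release, rose from 7896 ± 41.2 to 16311 ± 3514 (log2 difference 1.02, adjusted p = 0.00887), and lost its call without control 2 (adjusted p = 0.0573) or control 3 (adjusted p = 0.0573). Serpinb6b, a serpin of the group that inhibits granzymes, was called lower beside Gzmd to Gzmg (log2 difference -1.20, adjusted p = 0.0201). With edgeR it was also called (adjusted p = 0.00899), but it was not followed singly through the other alternatives. Over edgeR and single libraries left out, 4 to 5 genes of this list were called lower. Gzmd to Gzmg kept their calls there, so that of Serpinb6b was not kept throughout. Both higher genes were highest in mutant 3, where 7 of the members were lowest, and neither is restricted to lymphocytes. With eBayes without trend neither was called (adjusted p = 0.112 and 0.128).

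The 16 other transcription factors of natural killer cells included 2 called higher and 3 called lower, beside 5.34% and 4.08% of all genes. Which cells of the uterus held their transcripts was not tested. Ikzf2 and Ikzf3, which encode the Ikaros family factors Helios and Aiolos, rose from 1449 ± 89.9 to 6526 ± 3121 and from 2446 ± 257 to 6862 ± 2180 (log2 differences 2.07 and 1.44, adjusted p = 0.000405 and 0.00286). Both were highest in mutant 3 (10103 and 8781), where 7 of the members were lowest. Prdm1, which encodes the repressor Blimp-1, fell from 20807 ± 3856 to 6192 ± 2890 (log2 difference -1.83, adjusted p = 0.00126). Nfil3, a factor needed for natural killer cell development, fell from 20219 ± 1787 to 11196 ± 3128 (log2 difference -0.89, adjusted p = 0.0318), and Ets1 from 17007 ± 3484 to 8673 ± 2881 (log2 difference -1.01, adjusted p = 0.0256). Each of the last 2 calls was lost without any one of controls 1, 2 and 3 and mutants 1 and 3, with an adjusted p of 0.0515 to 0.157 for Nfil3 and 0.0622 to 0.169 for Ets1.

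The list for interleukins 15, 12 and 18 also holds receptor genes and signalling genes such as Stat5a and Jak3. Of its 17 genes 4 were called higher and none lower, beside 5.34% and 4.08% of all genes. Il18r1, a chain of the interleukin 18 receptor, had 399, 379 and 507 against 3138, 1777 and 6814 (log2 difference 2.98, adjusted p = 0.00023), a 9.13-fold difference of means and 5.74-fold without mutant 3. Stat5a, which carries signals of interleukin 15 among others, rose from 4452 ± 749 to 18803 ± 3585 (log2 difference 2.08, adjusted p = 4.73e-05). Both genes were highest in mutant 3, unlike the natural killer cell receptors. Jak3 and Il18rap had log2 differences of 1.08 and 1.07, with adjusted p of 0.00871 and 0.0423; Jak3 lost its call without control 2 (0.0846) or 3 (0.0503), and Il18rap without any library except mutant 2 (0.0742 to 0.189). Il15 itself had 3798, 4063 and 3490 against 2462, 4028 and 1842 (log2 difference -0.52, adjusted p = 0.289), so mutants 1 and 3 lay below the controls and mutant 2 among them. It was called lower without mutant 2 (-0.83, adjusted p = 0.0356).

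Genes of natural killer cytokines and chemokines gave 0 calls among 11 by limma or edgeR, with 1 unadjusted p under 0.05 and a median of 0.01. Ifng, for interferon gamma, was low throughout, at 20.3 to 36.7 in controls and 25.6 to 39.5 in mutants. Where 4.08% of all genes were called lower, 2 of 18 genes of tissue residency and homing were. These were Cxcl12 (log2 difference -1.20, adjusted p = 0.00921, and 0.0824 without control 3) and Cxcl14 (-1.52, adjusted p = 0.0297), which encode chemokines. The call of Cxcl14 was lost without any library except control 1 and mutant 2, with an adjusted p of 0.0507 to 0.219.

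Ligands for natural killer receptors gave 4 called higher and 1 called lower among 17, beside 5.34% and 4.08% of all genes. H60c, which encodes a ligand of the Klrk1 product NKG2D, had 7.03, 4.28 and 5.09 in the controls against 1110, 95.7 and 2117 in the mutants (log2 difference 6.58, SE 0.88, adjusted p = 0.000291). Each mutant was far above each control, with mutant 2 the nearest. The ratio of means was 203, and 110 without mutant 3. Raet1d, another NKG2D ligand gene, had 324, 433 and 627 in the controls against 30.7, 295 and 25.6 in the mutants, with mutant 2 far above the other mutants. The ratio of control to mutant mean was 3.94, and 16.4 without mutant 2. It was called lower at -2.82 (adjusted p = 0.0243), but not by edgeR (adjusted p = 0.116), and without any one of controls 1 to 3 and mutants 1 and 3 its adjusted p was 0.0826 to 0.188. Clec2f and Clec2d, for lectin-like relatives of which the Clec2d product binds a Klrb1 family receptor, had log2 differences of 2.15 and 0.97 (adjusted p = 0.000326 and 0.0306), and Cdh1, for E-cadherin, a ligand of the receptor Klrg1, one of 1.88 (adjusted p = 0.000363). Clec2d lost its call without any library except control 1 and mutant 2 (adjusted p = 0.108 to 0.180).

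Markers of other leukocytes were checked beside the members, in a table where 5.34% of all genes were called higher and 4.08% lower. Of 13 T cell markers 0 were called by limma or edgeR, none had an unadjusted p under 0.05, and their sums were 3497 to 4074 in controls and 3630 to 4956 in mutants. Cd3e, a T cell receptor chain, had 203, 122 and 156 against 77.2, 157 and 252 (log2 difference -0.11, adjusted p = 0.925), and was lowest in mutant 1. The list sum was highest in mutant 1, where Ncr1 was also highest. Of the 13 markers 3 were highest in that library: Trbc1 (1791, 985 and 499 in mutants), Trbc2 (1237, 882 and 518) and Trdc (398, 179 and 270). Trac, also a T cell receptor gene, went the other way, with 165, 243 and 250 in mutants. The 8 pan-leukocyte genes had sums of 72883 to 83784 in controls and 77389 to 99685 in mutants, with 0 called. Of 9 markers of other innate lymphoid cells 1, Areg, was called lower. Of the remaining leukocyte lists, 12 macrophage and monocyte markers gave 0 calls by limma and 1, Mertk, by edgeR, and 10 mast cell, basophil and eosinophil markers gave 0 by either. Among 6 B cell markers 1 was called higher (Cd79b), among 6 dendritic cell markers 1 lower (Zbtb46), and among 8 neutrophil markers 1 higher (Ly6g) and 2 lower (S100a8 and Camp). Camp lost its call in 13 of 17 alternatives, edgeR among them (adjusted p = 0.131).

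Some listed uterine and embryonic marker genes moved between genotypes in the same libraries, where 5.34% of all genes were called higher and 4.08% lower. Of 12 uterine tissue markers 4 were called higher (Epcam, Krt8, Krt18 and Esr1) and 5 lower (Hand2, Hoxa10, Hoxa11, Nr2f2 and Pecam1), the higher ones being mostly epithelial and the lower ones stromal or endothelial genes. Of 14 embryo and trophoblast markers 2 were called higher (Plet1 and Elf5) and 1 lower (Tfap2c). Their summed level was 3000 to 3752 in controls and 28265 to 95542 in mutants, Plet1 alone holding 1884, 1811 and 1513 in controls and 94369, 27283 and 75630 in mutants, while Pou5f1, Nanog, Cdx2, Hand1 and Dppa4 were at 0 to 49.2 in all libraries. Leaving out single libraries other than mutant 2 ended the calls of Areg, Cd79b, Zbtb46, Camp, Krt18, Esr1, Hoxa10, Hoxa11 and Nr2f2, at an adjusted p of 0.0519 to 0.196. Pecam1 was not followed singly through these settings. Over edgeR and single libraries left out, 1 to 5 uterine markers were called lower, and Hand2 kept its call in each. The call of Pecam1 was thus not kept throughout. Which cells held the Plet1 and Elf5 transcripts was not tested. The part of the shifts in uterine and embryonic markers in the lower Gzmc to Gzmg was not tested either.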

How the data were processed

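Poly(A) libraries were made from total uterine RNA with a stranded kit, per the labels' protocols, and were processed with HISAT2, HTSeq and DESeq (versions not named), per the submitters' processing notes. The deposited table is titled FPKM, but each value is a whole number of reads (100% within 1e-06 of a read) divided by a library's size factor. It is thus a signal of normalized counts made by the authors, and levels differ with gene length. The planned test, written for FPKM, was kept. It was limma 3.58.1 (R 4.3.3) with eBayes and trend on log2(value + 1), for 36154 genes with a mean of at least 0.5, with genotype the only term. Whole reads were recovered for edgeR 4.0.16 and DESeq2 1.42.0. Per the study's design text the 3 libraries of a group are 3 mice. The procedure was tested on simulated data.

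The members, gene lists and tests were chosen with earlier results of these data known. Named genes are Ncoa2, the members, their close relatives, Ptprc, Cd3e, Il15, the 5 nearest patterns, and per list up to 4 called genes per direction, or the 2 with the smallest p. Others (Serpinb6b, Ifng, Pecam1 and the embryo markers at 0) were chosen after their values were seen. Exon lengths and transcript stretches came from GENCODE M21, promoters from RefSeq (GRCm38.p6). The authors' genome build was not given in the sources used here. Alternatives were a pseudocount of 0.1 or 0.5, a mean of at least 10 or no filter, TMM or library-total scaling, eBayes without trend or robust, a replicate block, both count tools and each library left out.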

Additional observations from a re-analysis of the deposited data

How the results depend on the processing

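Gzmc kept its call in all 17 alternatives, and no other member was called in any, except Gzma without mutant 3 and Gzmb without mutant 2. Leaving out 1 library each gave 0 to 1 members called higher and 1 to 2 called lower. Directions of uncalled members depended on the setting: with edgeR Ncr1 came to 0.041, Klrb1c to 0.14 and Tbx21 to 0.086, with DESeq2 to 0.044, 0.14 and 0.080, and Cd3e with DESeq2 to 0.020. With single libraries left out, log2 differences ran from -0.28 to 0.30 for Ncr1, -0.23 to 0.51 for Klrd1, -0.49 to 0.44 for Klrb1c, -0.53 to 0.26 for Prf1, -0.50 to 0.20 for Eomes, -0.65 to 0.45 for Tbx21 and -0.51 to 0.34 for Cd3e. Ncoa2 ran from -0.95 to -0.85, and eBayes without trend ended its call (-0.91, adjusted p = 0.119); the cause was not tested.

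Over all genes, the 1929 higher and 1476 lower calls became 683 and 315 with eBayes without trend. That setting also ended the calls of Gzmd, Ikzf2, Ikzf3, Prdm1, Ets1, Nfil3, Jak3, Il18rap, Cxcl12, Cxcl14, Clec2d, Raet1d, S100a8, Hand2 and others, at an adjusted p of 0.0503 or more. With controls 1, 2 and 3 left out in turn, lower calls numbered 906, 452 and 315, and with mutants 1, 2 and 3 left out 819, 2813 and 761; higher calls were 1093 and 1013 without control 2 or 3. Same-numbered libraries had deviations correlated at 0.376, 0.0146 and 0.0274, so the numbers were not taken as pairs; with the replicate block 2104 genes were higher and 1708 lower, with 0 members called higher and 1 lower. Other scalings moved the median of all genes by under 0.1. DESeq2 called 2533 genes higher and 1832 lower and gave no adjusted p for 4946.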
